A study of Mus musculus with 6 samples.

Results

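The Polycomb repressors of meiotic genes examined here were E2f6, Mga, Max, L3mbtl2, Pcgf6, Rnf2 and Ring1 of the PRC1.6 complex and Ezh2, Eed and Suz12 of PRC2. The 10 genes were chosen by name, and all of them were found among the 48709 genes of the deposited count table. RNA came from 13.5 dpc ovaries of wild-type CD1 mouse embryos, in 3 control pools and 3 pools exposed in utero to acetaminophen (APAP) and ibuprofen (IBU). The pregnant females received APAP at 30 mg/kg per day and IBU at 15 mg/kg per day, given in turn by gavage every 3 h, 4 times a day, from 10.5 to 13.5 dpc, and control females received ethanol. Only IBU appears in the titles of the exposed group, but its exposure label gives both drugs, and the label was followed. Each library was made from whole gonads of several embryos of more than 1 dam, so that germ cells and somatic cells were measured together. In such bulk RNA, fewer cells of a type and less RNA per cell cannot be told apart.

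Polycomb complexes keep genes silent by modifying histones. PRC2 methylates a lysine of histone H3 through its catalytic subunit EZH2, which needs EED and SUZ12 to be active, and PRC1 attaches ubiquitin to histone H2A through RNF2 or its paralogue RING1. PRC1.6 is the PRC1 form built on PCGF6, in which E2F6 and the MGA/MAX dimer bind DNA at E2F sites and E-boxes and L3MBTL2 is a chromatin-binding subunit. In mouse germ cells these complexes are known for holding meiotic and germline genes back until female germ cells enter meiosis, which begins shortly before the stage sampled here.

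The DNA motifs of the complex can be read in the promoters of its known target genes. Promoters from RefSeq on GRCm38.p6, from 250 bases before to 50 bases after the transcription start, were searched for the E-box CACGTG, which is the same on both strands, and for the E2F core TCCCGC or, on the other strand, GCGGGA. These motifs do not overlap each other in the promoters shown. Of 22 meiotic and germline genes listed as PRC1.6 targets, 20 had a promoter entry. The E-box was present in 11 of the 20 and in 8.09% of all 27025 genes with a promoter. The E2F core was likewise in 11 of the 20, against 22.05% of all genes. Both were found in 7 of the 20 target genes and in 2.32% of all genes. The list was made from genes known as targets of the complex, so that these shares describe it and do not test it. The stretches below lie upstream of the start and outside annotated exons, run 5′ to 3′ on the strand of the gene, and show both kinds of motif in capitals in 3 target genes and the E-box alone in Sycp1 and Slc25a31, whose E2F core lies beyond the start.
Sycp3, chr10:88459430-88459559, plus strand: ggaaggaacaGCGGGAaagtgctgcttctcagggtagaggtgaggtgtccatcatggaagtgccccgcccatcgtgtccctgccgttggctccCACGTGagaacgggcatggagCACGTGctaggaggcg
Hormad1, chr3:95559572-95559672, plus strand: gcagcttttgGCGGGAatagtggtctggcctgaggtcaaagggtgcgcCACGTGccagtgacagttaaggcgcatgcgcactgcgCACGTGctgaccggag
Mael, chr1:166238872-166238977, minus strand: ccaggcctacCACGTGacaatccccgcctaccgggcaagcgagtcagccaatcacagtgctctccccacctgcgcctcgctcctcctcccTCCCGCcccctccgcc
Sycp1, chr3:102936179-102936204, minus strand: gagaacccggCACGTGggaagggaaa
Slc25a31, chr3:40708768-40708793, plus strand: caactggaaaCACGTGttatggtcac

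All 10 members had a promoter entry, and 4 of them held a motif, against 27.5% of all genes. The E2F core occurred in E2f6, Rnf2 and Suz12 and the E-box in Max, where it spans the start. Suz12 held 2 E2F cores upstream of its start. The upstream stretches are shown so that they can be set beside those of the target genes.
E2f6, chr12:16810902-16810927, plus strand: accggtgtgcGCGGGAgatctaacgg
Rnf2, chr1:151501204-151501229, minus strand: aacctcagcaGCGGGAgggaaggcgc
Suz12, chr11:79992879-79993051, plus strand: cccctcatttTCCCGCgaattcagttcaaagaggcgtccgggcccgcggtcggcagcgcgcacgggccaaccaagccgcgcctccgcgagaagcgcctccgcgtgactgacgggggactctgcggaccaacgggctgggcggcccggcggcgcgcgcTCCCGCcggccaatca

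Total counts per library ran from 37811968 to 48954631, and the members had between 688 and 14902 counts in each library, so that counting error was small beside the spread between pools. Both replicate 3 libraries stood apart in liver RNA. The summed level of 12 liver markers (in CPM, the reads of a gene scaled to a common library size) reached 2001 in the control library of this number and 3256 in the exposed one, while it was 195 to 567 elsewhere, and no marker was at 0. All 13 spermatid markers were lower in exposed ovaries, with sums of 55.5 to 175 CPM in controls and 5.04 to 10.3 CPM after exposure and none at 0. Sums of 6 fetal testis markers were 20.9 to 39.8 CPM and 17.8 to 21.7 CPM, with Insl3 at 0 in control replicate 2. For 11 erythroid markers the sums were 7030 to 17130 CPM in controls and 3180 to 10200 CPM after exposure. Germ cell markers (8 genes) summed to 827 to 1136 CPM in controls and 1038 to 1051 CPM in exposed ovaries, where Dazl and Ddx4, which are also target genes, made up most of the sum. Of these 8 markers, 6 had a negative log2 fold change, with a median of -0.31 and Dppa3 at -0.66 (SE 0.26, edgeR adjusted p = 0.692). The somatic ovary markers (8 genes) summed to 747 to 1206 CPM in controls and 927 to 974 CPM after exposure. No gene of either list was at 0. The part of these other cell types in the results on the members, and on the partner and target genes described below, was not tested.

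All 10 members were expressed in every library. Levels between genes were compared as CPM per kb of exon, averaged over the 6 libraries with the SD between them. Exon length was the union over all annotated transcripts of a gene, which can exceed the length of the expressed mRNA. The order and the ratios between genes depend on it. Rnf2, the main ubiquitin ligase of PRC1, was highest with 35.3 ± 3.70 CPM per kb (SD, n = 6), followed by Suz12 with 29.1 ± 5.44 and Ezh2 with 20.5 ± 1.72. Max followed with 17.9 ± 3.19, Mga with 14.4 ± 4.62 and Eed with 13.9 ± 1.08, all in CPM per kb. The lower levels were those of E2f6 (11.3 ± 0.702), L3mbtl2 (10.2 ± 1.10), Pcgf6 (7.25 ± 0.738) and Ring1 (6.79 ± 1.04 CPM per kb).

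The ranges of neighbouring genes in this order overlapped except between Eed and E2f6 and between L3mbtl2 and Pcgf6. Within each library, Rnf2 was above Suz12 and Suz12 above Ezh2 in 6 of 6 libraries. Max and Mga changed places, Max being higher in 3 of 6. Rnf2 exceeded its paralogue Ring1 in level per kb by 4.37-fold to 8.32-fold. Ezh2 exceeded Ezh1, the other H3 methyltransferase of PRC2, by 1.94-fold to 2.45-fold.

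**Figure D1:**
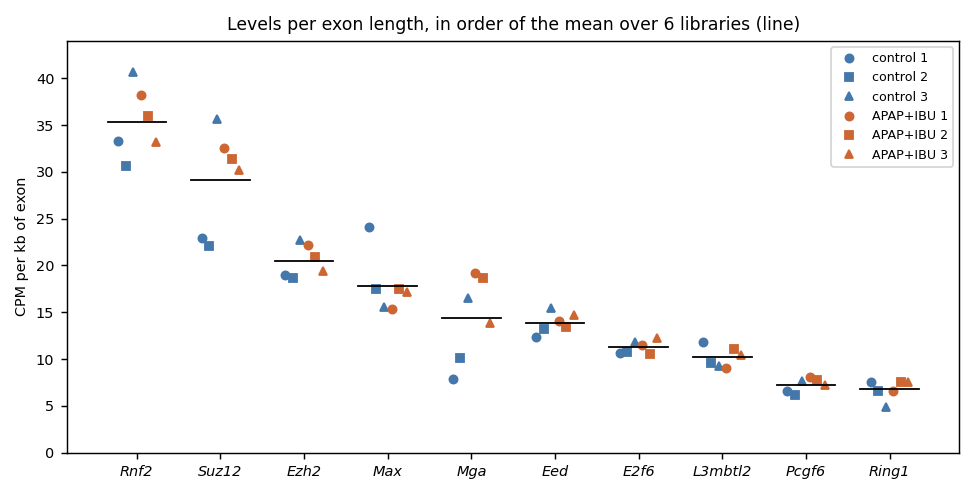
Level of each Polycomb member in CPM per kb of exon (y axis), with the genes in order of their mean over 6 libraries (black line) and 1 point per library (blue control, orange APAP+IBU, shape by replicate). Rnf2 and Suz12 stand highest and Pcgf6 and Ring1 lowest, and the points of Mga spread widely around their mean.

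No member was called different between control and exposed ovaries when all 6 libraries were compared. The quasi-likelihood test of edgeR was adjusted with the Benjamini-Hochberg method. By it, 0 of 10 members had an adjusted p under 0.05, as did 0% of the 20167 genes tested. DESeq2 also called 0 members, but its share of all genes at this threshold was not computed. At an unadjusted p under 0.05 it was again 0 of 10 members in edgeR, against 6.22% of all tested genes, and 1 of 10 in DESeq2, against 5.85%. The log2 fold change (exposed minus control) was positive in 8 members, against 49.4% of all genes, and its median was 0.05 for the members and -0.0047 for all genes. Control and exposed values overlapped in 10 of 10 members, whereas 10.7% of all tested genes had groups that did not overlap.

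**Figure D2:**
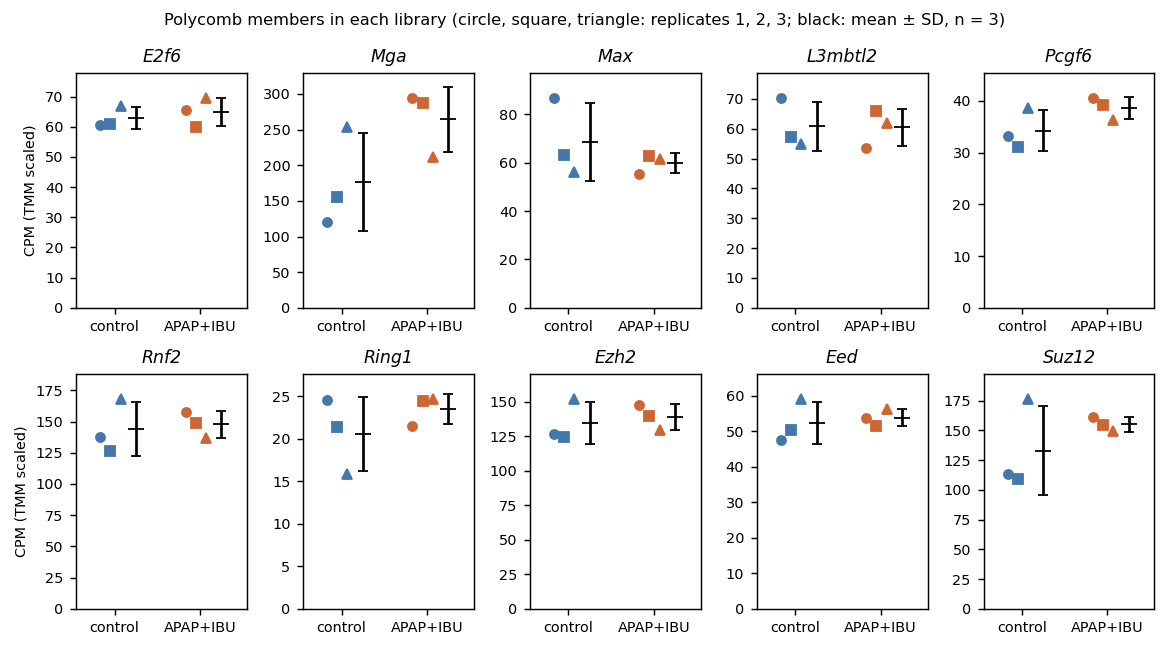
CPM after TMM scaling (y axis, from 0) of each member in the 3 control (blue) and 3 APAP+IBU (orange) libraries, with the mean ± SD of each group in black. The groups overlap in all 10 panels, and control replicate 3 (blue triangle) lies near the exposed libraries in Mga.

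Mga encodes the large scaffold that joins MAX to the complex and is the member with the largest difference. It lies at chr2:119897228-119969581 on the plus strand and has 15340 bases of exon. Its level was 121, 155 and 253 CPM in control replicates 1, 2 and 3 and 294, 287 and 212 CPM in APAP+IBU replicates 1, 2 and 3. Control replicate 3 was thus above exposed replicate 3, and the highest library exceeded the lowest by 2.43-fold. Group means were 176 ± 68.6 and 264 ± 45.5 CPM (SD, n = 3 each). The log2 fold change was 0.58 (SE 0.27, 95% confidence interval -0.04 to 1.21, edgeR adjusted p = 0.692). A two-sided exact test that permuted the libraries had p = 0.2, and 3 against 3 libraries cannot give less than 0.1. MAX, the partner of MGA and of the MYC proteins, showed 86.7, 63.1 and 56.0 CPM in controls and 55.3, 62.8 and 61.7 CPM after exposure. Control replicate 1 alone stood above the other 5 libraries for Max, and the log2 fold change was -0.20 (SE 0.17, edgeR adjusted p = 0.732).

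E2f6, which encodes a DNA-binding repressor of the E2F family, kept within 59.9 to 69.4 CPM over the 6 libraries. Its log2 fold change was 0.05 with a 95% confidence interval from -0.22 to 0.32. L3mbtl2 was at 53.7 to 70.2 CPM, with a log2 fold change of -0.0070 and an interval from -0.34 to 0.32. Pcgf6, which defines PRC1.6, was at 31.0 to 38.6 CPM in controls and 36.3 to 40.5 CPM after exposure, a log2 fold change of 0.17 (-0.14 to 0.49). For these 3 genes the intervals leave room for changes of up to 0.49 on the log2 scale. L3mbtl2 shares 1023 exon bases (17.2% of its exon length) with Chadl on the opposite strand, which had 68 to 142 counts. Other members have smaller overlaps of this kind. Rnf2 shares 3.83% of its exon length with Trmt1l, which had 1505 to 2252 counts. Eed, Suz12 and Ezh2 share 6.82%, 3.6% and 2.61% with genes of 0 to 63 counts. How strand was used in counting is not given in the sources used here.

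The ubiquitin ligases went separate ways in control replicate 3. Rnf2 had 138, 126 and 168 CPM in controls and 158, 149 and 137 CPM after exposure. Ring1 had 24.5, 21.3 and 15.9 CPM in controls and 21.4, 24.4 and 24.6 CPM after exposure. Control replicate 3 was the highest of all 6 libraries for Rnf2 and the lowest for Ring1. The ratio of Rnf2 to Ring1 per kb was 8.32 there and 4.37 to 5.78 elsewhere, and it did not differ between groups beyond this spread (exact permutation test, p = 0.8). The log2 fold changes were 0.04 (SE 0.14) for Rnf2 and 0.19 (SE 0.19) for Ring1.

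Of the PRC2 core, Suz12 varied most. It had 114, 109 and 176 CPM in controls and 161, 155 and 149 CPM in exposed ovaries, so that control replicate 3 was the highest library. Its log2 fold change was 0.22 (SE 0.19, 95% confidence interval -0.22 to 0.66, edgeR adjusted p = 0.724). Ezh2 lay between 125 and 152 CPM and Eed, which binds the methylated histone, between 47.5 and 59.0 CPM, and for both genes control replicate 3 was again the highest library. Their log2 fold changes were 0.05 (SE 0.13) and 0.04 (SE 0.13). The ratio of Ezh2 to Ezh1 per kb was 2.33 ± 0.141 in controls and 2.04 ± 0.0933 after exposure (SD, n = 3 each, exact permutation test, p = 0.1, the smallest possible). This was 1 of 5 ratios computed, and its Benjamini-Hochberg adjusted p was 0.333.

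Because both replicate 3 libraries carried the liver RNA, the comparison was also made with replicates 1 and 2 of each group. Then 2 of 10 members, Mga and Suz12, had an adjusted p under 0.05, at a background of 27.2% of 20633 tested genes in either direction and 14.2% that were higher. Mga rose by 1.09 on the log2 scale (SE 0.13, edgeR adjusted p = 0.0062) and Suz12 by 0.53 (SE 0.088, edgeR adjusted p = 0.0085). Pcgf6 showed 0.33 (edgeR adjusted p = 0.055), Rnf2 0.24 (0.103), Ezh2 0.21 (0.114) and Max -0.32 (0.160). In 8 of 10 members the difference between the replicate 3 libraries had the opposite sign to that of replicates 1 and 2, as it had in 69.0% of all tested genes. It was -0.26 for Mga, -0.24 for Suz12 and -0.29 for Rnf2, and 0.64 for Ring1, which with E2f6 kept its sign, as log2 CPM of exposed minus control with 1 library each and no test. Leaving out control replicate 3 alone gave the same 2 calls, Mga at 0.94 and Suz12 at 0.48, at a background of 5.16%.

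The members that were called or came nearest to the threshold on the higher side in these libraries had low GC content. Over all tested genes with 30 to 35% GC in the longest transcript, the median log2 deviation from the mean of 6 libraries was -0.49 in control replicate 1 and 0.45 in APAP+IBU replicate 1, and at 60 to 65% GC it was 0.51 and -0.21. Control replicate 3 ran the other way from the other controls, from 0.14 to -0.45. Among the members, the 5 under 45% GC (Mga, Pcgf6, Rnf2, Ezh2 and Suz12) had log2 fold changes of 0.21 to 1.09 in replicates 1 and 2, and the 5 above it had -0.32 to 0.13. The Spearman correlation of log2 fold change with GC content in these libraries was -0.842 over the 10 members, which share the libraries, and -0.466 over 20567 genes, both given as descriptions.

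**Figure D3:**
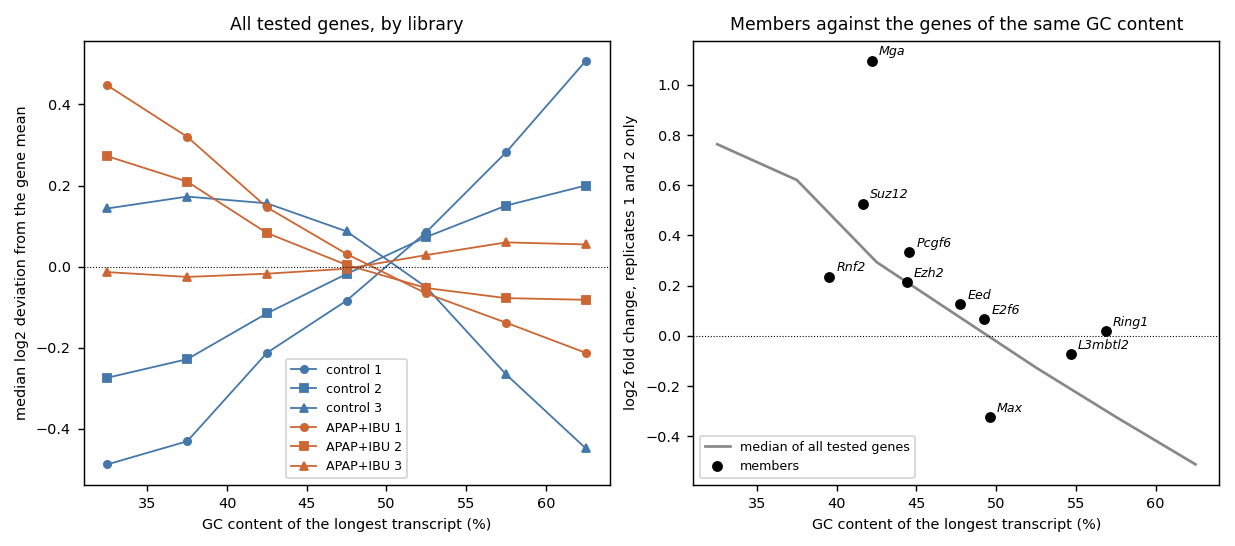
Left, median log2 deviation of each library from the mean of 6 libraries (y axis) for all tested genes in bins of GC content (x axis, %). Right, log2 fold change of replicates 1 and 2 (y axis) against GC content for the 10 members (points) and the median of all genes (line), where Mga lies well above the line at its GC content and Max below it.

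A loess correction of each library for gene length and GC content was therefore applied. With replicates 1 and 2 it left 1 of 10 members called, at a background of 13.1%. Mga still rose, by 0.55 on the log2 scale (SE 0.098, 95% confidence interval 0.32 to 0.77, edgeR adjusted p = 0.016), and Suz12 was at 0.16 (edgeR adjusted p = 0.289). Rnf2 moved from 0.24 to -0.27 and Ring1 from 0.02 to 0.32, neither of which passed the adjusted threshold. With all 6 libraries the correction gave Mga 0.36 (SE 0.13, edgeR adjusted p = 0.524), Ring1 0.31 (SE 0.11) and Rnf2 -0.22 (SE 0.099), and no member was called. On the corrected scale the 3 exposed libraries were all above the 3 controls for Mga and Ring1 and all below them for Rnf2, which is 3 of 10 members against 14.2% of all tested genes. The corrected log2 deviation of Mga from its mean was -0.38, -0.23 and 0.05 in controls and 0.22, 0.28 and 0.06 after exposure, so that both replicate 3 libraries nearly coincided.

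**Figure D4:**
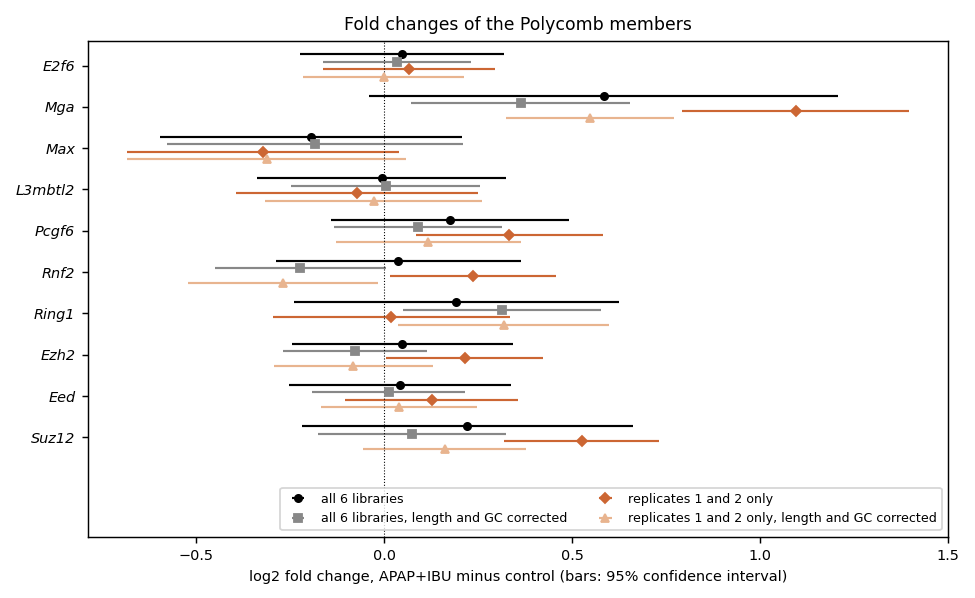
Log2 fold change of each member (x axis, exposed minus control, bars are 95% confidence intervals) from all 6 libraries and from replicates 1 and 2 only, with and without correction for length and GC content. The interval of Mga from all 6 libraries reaches just below 0, from -0.04 to 1.21, and the sign of Rnf2 and Ezh2 turns with the correction.

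Genes that work with these subunits were examined in 6 lists. Of 63 tested partner genes, 3 were higher and 3 lower at an unadjusted p under 0.05, against the background of 6.22%, and none passed the adjusted threshold in edgeR. DESeq2 gave 6 of 63 at the unadjusted threshold. The largest share was among the enzymes that remove Polycomb marks and their ASXL cofactors, where 3 of 8 (Asxl2, Usp16 and Mysm1) were higher. In this list 8 of 8 had a positive log2 fold change, against 49.4% of all genes, with a median of 0.27. Without control replicate 3, 6 of 8 were positive. Asxl2, a cofactor of the H2A deubiquitinase BAP1, had 33.1, 47.7 and 81.1 CPM in controls and 101, 99.7 and 73.8 CPM after exposure. As for Mga, its control replicate 3 was above its exposed replicate 3, and the log2 fold change was 0.76 (SE 0.30). Usp16 and Mysm1, both H2A deubiquitinases, had log2 fold changes of 0.37 (SE 0.16) and 0.63 (SE 0.26). With length and GC correction the median of this list was 0.09, and 6 of 8 were positive. Asxl2 was then at 0.55, Mysm1 at 0.41 and Usp16 at 0.06, and the 3 genes past the unadjusted threshold were Asxl2, Mysm1 and the H3 demethylase gene Kdm6a (0.34), against 9.24% of all genes.

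Among 10 PRC1.6 partners, Hdac2, a histone deacetylase, was at 305, 266 and 275 CPM in controls and 232, 218 and 239 CPM after exposure. The groups did not overlap, and its log2 fold change was -0.30 (SE 0.12, edgeR). Tfdp2, a dimer partner of E2F proteins, was the PRC1.6 partner nearest the threshold on the higher side, with 0.28 (SE 0.16). The list had a median of -0.06. Among 9 tested PRC2 partners, Rbbp4, the histone-binding subunit that PRC2 shares with other complexes, had 592, 628 and 651 CPM in controls and 504, 496 and 522 CPM after exposure. Its log2 fold change was -0.30 (SE 0.12), again without overlap. Epop, an accessory subunit of PRC2, was also lower, with -0.86 (SE 0.35), although its groups overlapped between 4.95 and 6.09 CPM. Over all 63 partner genes, the groups did not overlap in 3 higher and 6 lower genes, against 10.7% of all tested genes. With length and GC correction the log2 fold changes of Hdac2, Rbbp4 and Epop were -0.46, -0.45 and -0.49. Ezh1 had 0.24 (SE 0.12).

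None of 19 subunits of other PRC1 forms, 10 members of the MAX network or 7 other E2F genes passed the unadjusted threshold. The medians of these lists were -0.02, -0.05 and 0.03. On the higher and the lower side of each list, the genes nearest to it were Phc3 (0.50, SE 0.23) and Phc2 (-0.33, SE 0.23), which encode polyhomeotic subunits, Mlxip (0.21, SE 0.16) and Myc (-0.35, SE 0.19) of the MAX network, and E2f8 (0.38, SE 0.30) and E2f1 (-0.25, SE 0.18). With replicates 1 and 2 only, 15 of the 63 partner genes were higher and 6 lower at an adjusted p under 0.05, against 27.2% of all genes in either direction. After the length and GC correction of these libraries 6 were higher and 6 lower, against 13.1%.

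The target genes were described in the same way. Of 22 tested, 17 had a positive log2 fold change, against 49.4% of all genes, with a median of 0.23. However, only Sycp1 passed the unadjusted threshold in edgeR (4 genes in DESeq2) and none the adjusted one in edgeR. Sycp1, the transverse filament protein of the synaptonemal complex, whose E-box is printed above, had 22.2, 34.0 and 31.2 CPM in controls and 79.6, 89.0 and 27.6 CPM after exposure. APAP+IBU replicates 1 and 2 were above every control, whereas replicate 3 lay within the control range. The log2 fold change was 1.17 (SE 0.40, edgeR adjusted p = 0.692). Meiob, which acts in meiotic recombination, had 17.7, 21.1 and 16.2 CPM in controls and 31.3, 43.0 and 15.4 CPM after exposure, a log2 fold change of 0.71 (SE 0.33). Smc1b, a meiotic cohesin subunit, had 187, 192 and 253 CPM in controls and 289, 563 and 192 CPM after exposure, a log2 fold change of 0.72 (SE 0.36). With length and GC correction of all 6 libraries the median of the target list was 0.07, Sycp1 was at 0.56 (SE 0.31), and no target gene passed the unadjusted threshold.

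In 12 of the 22 target genes APAP+IBU replicates 1 and 2 were both above all controls, and in 11 of 22 replicate 3 was below all controls. Over all tested genes these patterns were found in 17.5% and 17.1%. On the lower side, Stra8, which starts the meiotic programme in response to retinoic acid, had 333, 319 and 208 CPM in controls and 213, 274 and 156 CPM after exposure. Its log2 fold change was -0.42 (SE 0.25). Tuba3a had -0.25 (SE 0.25), and since Tuba3a and Tuba3b are nearly identical, the split of reads between them is uncertain. Tdrd1, a factor of the piRNA pathway, had -0.10 (SE 0.14). Sycp3, Hormad1 and Mael, which carry both motifs, had log2 fold changes of 0.63 (SE 0.32), 0.50 (SE 0.27) and -0.03 (SE 0.16).

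With replicates 1 and 2 only, 13 of the 22 target genes were higher and 2 lower at an adjusted p under 0.05, against 27.2% of all genes. After the length and GC correction of these libraries, 3 were higher and 0 lower, against 13.1%. Repressors and targets were measured in the same libraries, so that these values stand side by side and no relation between them was tested.

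**Figure D5:**
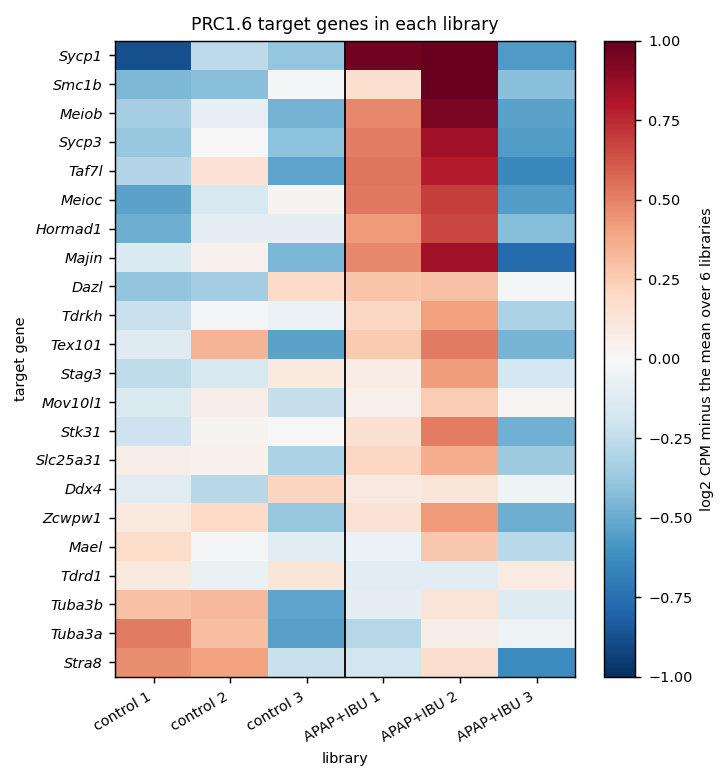
Log2 CPM of 22 target genes (rows, ordered by log2 fold change) in each library (columns), as the difference from the gene's mean over 6 libraries, with colours ending at -1 and 1. APAP+IBU replicates 1 and 2 are above the mean in most rows, while replicate 3 is below all controls in 11 of 22 genes.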

How the data were processed

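RNA of 13.5 dpc ovaries was sequenced from 3 control and 3 APAP+IBU pools as stranded polyadenylated libraries. The authors mapped reads to mm10 with TopHat2 2.0.14 and Bowtie2 2.1.0, counted them with HTSeq 0.6.1 on Ensembl release 86, and deposited raw counts per gene, with no normalisation. Groups came from the exposure labels. Each library is its own pool, so p-values measure the spread between pools and not between single embryos.

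Counts were tested with edgeR 4.0.16 in R 4.3.3 (TMM, its expression filter, quasi-likelihood test, Benjamini-Hochberg adjustment over 20167 genes, all 6 libraries). CPM used TMM-scaled library sizes and log2 CPM a prior count of 1. DESeq2 1.42.0 (without shrinkage), other scalings and filters, a replicate block, leaving out libraries, and a loess correction (span 0.3) for length and GC content served as alternatives. GENCODE M21, on the same assembly (GRCm38), supplied symbols, positions, exon lengths and GC content for 48349 genes. No coordinates were converted. The exact permutation test over 20 splits cannot go below 0.1. Libraries of one group differed by more than sampling noise. The tests were tried on simulated counts with the same spread for every gene and with no GC bias or outlying library. That trial does not show how they behave with these features of the real libraries. Ezhip and Ahsp had no matching row.

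The members and gene lists were chosen with earlier results of these data known. Genes named besides the members are, from each partner list, the gene of smallest unadjusted p on each side, and from the targets the 3 on each side. Usp16, Mysm1, Epop and Kdm6a, the other genes past the threshold, Dppa3 and genes whose promoters are shown were named after their values were seen.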

Additional observations from a re-analysis of the deposited data

How the results depend on the processing

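Of the members, 0 were called with all 6 libraries, and this count became 2 with replicates 1 and 2 only, 1 there with length and GC correction and 2 there with DESeq2, and 0 to 2 on leaving out each library. The share of all genes called was 27.2% with replicates 1 and 2, 13.1% there with the correction and 5.16% without control replicate 3. For DESeq2 the adjusted share was not computed. At an unadjusted p under 0.05 the count of 0 members became 1 with DESeq2, 1 with all genes of at least 1 count, 2 with length and GC correction, 1 when that correction was joined to the replicate block, 0 to 3 on leaving out each library, and 5, 3 and 4 with replicates 1 and 2 (plain, corrected, DESeq2). The 6 partner genes became 1 with the replicate block, 0 to 25 on leaving out each library, and 32, 23 and 32 with replicates 1 and 2. The 1 target gene became 4 with DESeq2, 5 with all genes of at least 1 count, 2 with the replicate block, 0 after correcting for length and GC, 4 with block and correction, 0 to 9 on leaving out each library, and 17, 8 and 16 with replicates 1 and 2. Of the fits that left out 1 library, the highest counts came without control replicate 3 (members, partners) and without APAP+IBU replicate 3 (targets). Of all genes, 30.5% had an unadjusted p under 0.05 without control replicate 3 and 11.4% without APAP+IBU replicate 3. Leaving out any other library gave 2.8% to 3.35%. This share was 41.0%, 30.5% and 24.3% in the 3 fits of replicates 1 and 2 (plain, corrected, DESeq2). With all 6 libraries it was 5.85% with DESeq2 and 7.16% with all genes of at least 1 count. It was 9.24% with length and GC correction, 3.38% with the replicate block and 6.43% with block and correction.

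The signs of E2f6, Max, L3mbtl2, Rnf2, Ezh2 and Eed turned under at least 1 alternative. With length and GC correction, alone and with the block, Rnf2 was at -0.22 and -0.22, Ezh2 at -0.078 and -0.077, and L3mbtl2 at 0.0041 and 0.0058. In the corrected fit of replicates 1 and 2, Rnf2 was at -0.27, Ezh2 at -0.083 and E2f6 at -0.0018. L3mbtl2 was at 0.029 with total count scaling and at 0.005 with all genes of at least 1 count. Leaving out each library gave -0.027 to 0.097 for E2f6, -0.32 to 0.0079 for Max, -0.081 to 0.11 for L3mbtl2, -0.048 to 0.16 for Rnf2, -0.0084 to 0.15 for Ezh2 and -0.024 to 0.14 for Eed. The sign of Mga, Suz12, Pcgf6 and Ring1 held under all 18 alternatives, Mga running from 0.36 to 1.09. Beyond what leaving out libraries or the correction itself changes, the cause was not tested.

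Over all tested genes, deviations from the group means correlated at -0.069, -0.015 and -0.044 between libraries of the same number. In the paper's methods, each independent experiment had control and exposed females, and gonads were pooled within an experiment. The sample labels do not say which experiment a library came from. These correlations cannot settle whether the numbers pair the samples, because both replicate 3 libraries did share high liver RNA. The main fit and the permutation tests used no pairing. With the replicate block Mga was at 0.64 (edgeR adjusted p = 0.913) and 0 members were called.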
